A study of Homo sapiens with 30 samples.

Results

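Polycomb repressive complex 2 (PRC2) and the H3K27 demethylases were followed as 9 genes: the catalytic subunits EZH2 and EZH1, the core subunits SUZ12, EED, RBBP4 and RBBP7, the accessory subunit JARID2, and the demethylases KDM6A and KDM6B. They were chosen by name, and the RNA table listed each of the 9 among its 26253 genes. All 9 were among the 12666 genes with an FPKM (fragments per kilobase of transcript, scaled to the library's depth) of at least 1 in any line, called the tested genes from here on.

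PRC2 places methyl groups on lysine 27 of histone H3, and the trimethylated form, H3K27me3, marks repressed chromatin over developmental genes. EZH2 and EZH1 carry the catalytic SET domain and need SUZ12 and EED to be active, while KDM6A and KDM6B remove the mark. In prostate cancer EZH2 is known for high levels in advanced disease, and the ETS factor ERG, which prostate tumours often overexpress through a gene fusion, has been tied to PRC2 repression.

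The study asked how the Ras/ERK and PI3K/AKT pathways change what ERG does in RWPE1, an immortalized line of normal human prostate epithelium. RNA was measured in 4 lines made with retroviruses and drug selection: vector (pQCXIH and pBabe-puro, both empty), ERG (pQCXIH-ERG and pBabe-Puro), mAKT (pQCXIH and pBabe-Puro-Myr-AKT, a myristoylated AKT that stays at the membrane and is active) and ERG/mAKT (both genes). H3K27me3 was mapped by ChIP-seq in vector, ERG and ERG S96E cells, the last with a glutamate in place of serine 96, which imitates ERK phosphorylation, and ERK2 in vector and ERG cells. ERG was mapped in ERG/mAKT cells and in VCaP, a prostate cancer line with its own ERG fusion, and open chromatin by ATAC-seq in the 4 lines, of which vector cells are not analysed here. By the paper's methods, VCaP cells for ChIP were given either DMSO or the PI3K inhibitor LY294002. The VCaP list used here is the one labelled without LY294002. Both genes came from retroviral vectors and not from their own loci, each line was a transduced and selected population of 1 parent line, and for ChIP the labels name the pQCXIH vectors alone in vector and ERG cells. The RNA table held 1 FPKM per line, which the authors pooled over 3 libraries, and each peak list came from 1 library, so no spread between libraries could be computed and no test was run. Depth of the RNA libraries is unknown, since the table holds no counts.

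ERG RNA stood at an FPKM of 0.264 in vector and 0.434 in mAKT cells, against 357.6 in ERG and 328 in ERG/mAKT cells. AKT1 stood at 58.7, 64.2, 156.3 and 281 FPKM in vector, ERG, mAKT and ERG/mAKT cells. Both transgenes thus followed the line names, but AKT1 RNA was higher in ERG/mAKT than in mAKT cells. The basal markers KRT5 and KRT14, keratins of the basal layer, were among 6 basal markers whose summed FPKM was 6717, 2466, 6757 and 5094 in the same order of lines, with 4 of 6 lower and 1 higher by at least 1.5-fold in ERG over vector cells. The summed FPKM of 8 luminal markers was 1441, 3614, 1659 and 1880, nearly all of it from KRT8 and KRT18, while KLK2 and KLK3 were listed at 0 in every line. Markers of fibroblasts, endothelium and leukocytes stayed below 1 FPKM except COL1A1 and CD68. In bulk RNA, fewer cells of a type and less RNA per cell cannot be told apart. The part of this basal and luminal difference in the levels of the PRC2 genes was not tested.

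The sequences around the starts of 4 members are shown because they hold a match to at least 1 of the 5 short motifs searched. Open chromatin was also mapped over them, in whole or in part. Each is a RefSeq promoter of 300 bases, 250 before and 50 after the start, read 5′ to 3′ along the gene (build GRCh38.p14), with the match in capitals. The EZH2 window is chr7:148884242-148884541 (minus strand), SUZ12 is chr17:31936757-31937056 (plus), RBBP7 is the second listed start, chrX:16869814-16870113 (minus), and KDM6A is chrX:44872938-44873237 (plus).
EZH2: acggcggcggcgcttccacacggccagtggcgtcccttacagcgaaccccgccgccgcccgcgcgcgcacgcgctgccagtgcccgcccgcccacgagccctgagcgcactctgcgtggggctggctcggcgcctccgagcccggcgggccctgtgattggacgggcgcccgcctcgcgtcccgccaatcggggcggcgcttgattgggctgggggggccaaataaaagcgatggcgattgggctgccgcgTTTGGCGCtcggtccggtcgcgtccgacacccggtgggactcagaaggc
SUZ12: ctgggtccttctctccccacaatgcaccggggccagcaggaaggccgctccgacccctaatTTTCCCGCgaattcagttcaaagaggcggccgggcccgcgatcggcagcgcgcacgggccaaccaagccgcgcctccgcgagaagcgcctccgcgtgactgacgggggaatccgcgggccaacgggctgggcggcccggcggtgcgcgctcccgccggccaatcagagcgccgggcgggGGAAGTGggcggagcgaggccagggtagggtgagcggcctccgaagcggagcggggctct
RBBP7: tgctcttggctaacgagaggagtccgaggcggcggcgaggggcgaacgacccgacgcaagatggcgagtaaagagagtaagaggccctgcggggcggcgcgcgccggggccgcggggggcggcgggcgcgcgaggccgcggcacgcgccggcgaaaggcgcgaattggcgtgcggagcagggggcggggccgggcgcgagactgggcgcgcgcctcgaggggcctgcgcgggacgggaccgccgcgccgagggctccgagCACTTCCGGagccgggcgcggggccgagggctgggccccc
KDM6A: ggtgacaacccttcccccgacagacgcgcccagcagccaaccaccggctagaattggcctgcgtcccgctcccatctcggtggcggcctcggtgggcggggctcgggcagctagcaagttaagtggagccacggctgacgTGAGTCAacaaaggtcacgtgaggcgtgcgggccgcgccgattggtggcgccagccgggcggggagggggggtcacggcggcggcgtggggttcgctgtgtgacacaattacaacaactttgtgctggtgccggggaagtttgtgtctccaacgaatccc

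The E2F motif TTTGGCGC was found at EZH2, where it begins at base 2 after the start, and in 0.652% of 35116 promoter windows of all genes. The second E2F motif, TTTCCCGC, was found at position −189 from the start of SUZ12 and in 1.63% of windows. E2F factors drive genes of the cell cycle. The ETS motif GGAAGTG was found at position −10 from the start of SUZ12 and, on the opposite strand, at RBBP7, and in 11.2% of windows. At RBBP7 it overlapped CCGGAAG, the other ETS motif, which was found in 10.3% of windows. The AP-1 motif TGACTCA was found on the opposite strand at position −110 from the start of KDM6A and in 4.95% of windows. A gene can have more than 1 window, so shares per gene were higher. Of 27305 genes, 0.795% held TTTGGCGC, 1.98% TTTCCCGC and 6.05% TGACTCA. For the ETS motifs it was 13.4% for GGAAGTG and 12.2% for CCGGAAG. All motifs were searched on both strands, and EZH1, EED, RBBP4, JARID2 and KDM6B held none of these letters in their windows. A match describes the sequence and is not a measured binding site.

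Among the members, RBBP7 had the highest RNA level per transcript length in each line and EZH1 or KDM6A the lowest. RBBP7 and RBBP4 are histone-binding WD-repeat proteins that PRC2 shares with other chromatin complexes. RBBP7 (chrX:16862775-16888534 in hg19, minus strand) stood at 93.2, 97.3, 95.5 and 83.3 FPKM in vector, ERG, mAKT and ERG/mAKT cells. This placed it above 91.7% of the tested genes in vector cells and above 90.8% in ERG/mAKT cells, so its rank hardly moved. RBBP4 (chr1:33116749-33168361, plus strand) stood at 18.51, 16.03, 18.26 and 16.13 FPKM in the same order. Both lines with ERG were lower than both lines without it for RBBP4, by 1.15-fold at most.

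The catalytic subunits differed in level and in pattern. EZH2 (chr7:148504464-148581441, minus strand), the methyltransferase of dividing cells, stood at 13.7 FPKM in vector, 10.4 in ERG, 12.1 in mAKT and 11.9 in ERG/mAKT cells. It was highest in vector and lowest in ERG cells, with both mAKT lines between them. EZH1 (chr17:40852293-40897071, minus strand), its paralog with weaker catalytic activity, stood at 3.88, 4.00, 4.14 and 3.91 FPKM. Its range over the lines was 0.07 on the log2(FPKM + 1) scale, the smallest of the 9. The ratio of the FPKM of EZH2 to that of EZH1 was 3.54 in vector, 2.60 in ERG, 2.93 in mAKT and 3.04 in ERG/mAKT cells.

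SUZ12 and EED are the subunits without which EZH2 is inactive, SUZ12 as a scaffold and EED as the reader of the finished mark. SUZ12 (chr17:30264044-30328057, plus strand) stood at 17.2, 13.3, 17.2 and 15.7 FPKM in vector, ERG, mAKT and ERG/mAKT cells. It was lowest in ERG cells, as EZH2 was, and nearly equal in vector and mAKT cells. EED (chr11:85955426-85989852, plus strand) stood at 24.2, 26.2, 29.1 and 23.9 FPKM. It was highest in mAKT cells, and ERG cells were above vector cells, so it did not share the low value of SUZ12 there. The FPKM ratio of EED to SUZ12 was 1.41, 1.96, 1.69 and 1.52 in the 4 lines. SUZ12 shares sequence with its partial copy SUZ12P1, listed at 2.01, 3.02, 1.64 and 1.97 FPKM, which was highest in the line where SUZ12 was lowest. Reads could be split between the copies, so small differences in SUZ12 are uncertain.

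JARID2, a member of the Jumonji family without demethylase activity that helps recruit PRC2, had the widest range, 1.40-fold in FPKM + 1. JARID2 (chr6:15246206-15522273, plus strand) stood at 9.21 FPKM in vector, 8.34 in ERG, 7.98 in mAKT and 6.31 in ERG/mAKT cells. Each single-gene line was below vector, and the line with both genes was lowest. Its antisense partner JARID2-AS1 was listed at 0.438 FPKM at most, and reads of the pair cannot be told apart where the counting ignores strand. The demethylases were expressed in every line at levels close to that of EZH1. KDM6A (chrX:44732421-44971857, plus strand), also a subunit of the KMT2C and KMT2D complexes, stood at 4.43, 4.74, 3.77 and 4.61 FPKM. It was lowest in mAKT cells, and the other lines lay close together. KDM6B (chr17:7743235-7758118, plus strand), the inducible demethylase, stood at 5.31, 4.56, 5.89 and 6.17 FPKM. It was highest in ERG/mAKT and lowest in ERG cells. The summed FPKM of EZH2 and EZH1 over that of KDM6A and KDM6B was 1.81 in vector, 1.55 in ERG, 1.69 in mAKT and 1.46 in ERG/mAKT cells.

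**Figure D1:**
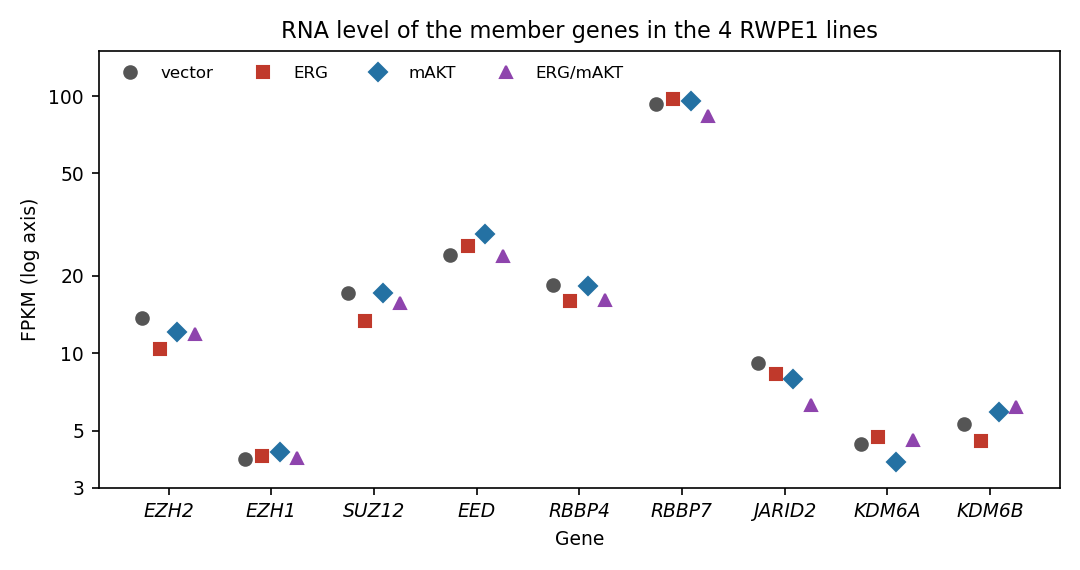
FPKM of the 9 genes on a log axis, with 1 point per RWPE1 line, each the authors' value pooled over 3 libraries and so without an error bar. RBBP7 lies at 83.3 to 97.3 FPKM and EZH1 at 3.88 to 4.14 FPKM, and the points of each gene lie within 1.40-fold of each other on the scale of FPKM + 1.

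The order RBBP7, EED, RBBP4, SUZ12, EZH2, JARID2 held in all 4 lines, and only KDM6A, KDM6B and EZH1 changed places below them. Between the highest and the lowest line, 0 of 9 members differed by 1.5-fold or more on the log2(FPKM + 1) scale, a scale that understates differences of low genes, while 19.7% of the tested genes did. The median range on that scale was 0.28 over the members and 0.33 over the tested genes, and 5 of 9 members lay below the latter. EZH2, SUZ12, RBBP4 and KDM6B were lowest in ERG cells, where 31.6% of the tested genes had their lowest value. EED, RBBP7 and JARID2 were lowest in ERG/mAKT cells, as were 36.4% of the tested genes. The median log2 ratio of the tested genes lay between −0.069 and 0.017 in the 5 comparisons, and setting it to 0 changed the sign of 5 of the 45 ratios of the members, none of them over 0.07 in size.

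ERG over vector cells asked what ERG does without added AKT signalling. EZH2 had the lowest log2 ratio of the members, −0.37, a 1.29-fold lower FPKM + 1, and SUZ12 followed with −0.35. Of the tested genes, 8.76% had a lower ratio than EZH2 and 9.94% a lower one than SUZ12. RBBP4 lay at −0.20, KDM6B at −0.18 and JARID2 at −0.13, while EZH1, RBBP7, KDM6A and EED lay between 0.03 and 0.11. No member was past 1.5-fold: 0 of 9 were higher and 0 of 9 lower, against 7.27% and 2.92% of the tested genes. The members' median was −0.13, beside −0.008 for the tested genes.

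mAKT over vector cells asked the same of AKT alone, which moved few genes. Here 0 of 9 members were higher and 0 of 9 lower by 1.5-fold, against 2.19% and 1.89% of the tested genes. EED had the highest log2 ratio, 0.26, above 90.8% of the tested genes. JARID2 and KDM6A were lowest, both at −0.19, and EZH2 lay at −0.17, each lower than all but 10.8% to 12.6% of the tested genes.

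Adding mAKT to ERG cells went with higher KDM6B and lower JARID2. For ERG/mAKT over ERG cells, KDM6B had a log2 ratio of 0.37, a 1.29-fold higher FPKM + 1. A higher ratio was found for 8.82% of the tested genes. SUZ12 lay at 0.22 and EZH2 at 0.17, while RBBP7 lay at −0.22 and JARID2 at −0.35. Again 0 of 9 were past 1.5-fold in either direction, against 4.21% of the tested genes higher and 6.85% lower.

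Adding ERG to mAKT cells gave log2 ratios from −0.30 for JARID2 to 0.23 for KDM6A, and 7 of 9 members were below 0, as were 63.6% of the tested genes. With the median of the tested genes set to 0, 5 of 9 were below it, and EZH2 changed sign, to 0.04. EED lay at −0.28 and RBBP7 at −0.20, and EZH2 at −0.03. None of the 9 was past 1.5-fold, against 4.43% of the tested genes higher and 2.46% lower. For ERG/mAKT over vector cells JARID2 had the largest difference of any member in any comparison, a log2 ratio of −0.48. This was 1.40-fold lower in FPKM + 1, and 5.05% of the tested genes had a lower ratio. In that comparison 0 of 9 members were past 1.5-fold, against 5.41% of the tested genes higher and 3.34% lower. These comparisons share lines: a high or low value in 1 line enters each comparison that uses it. AKT1 RNA was also higher in ERG/mAKT than in mAKT cells, and its part in the differences was not tested.

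**Figure D2:**
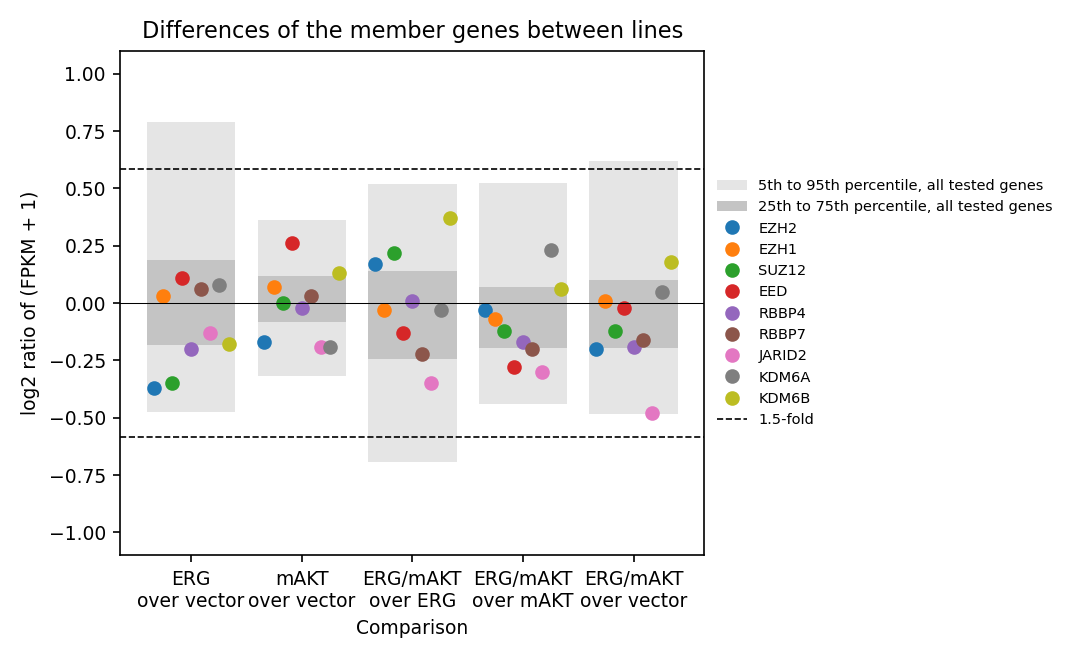
Log2 ratio of FPKM + 1 for the 9 genes (points) in 5 comparisons between lines, over the 5th to 95th and 25th to 75th percentiles of the 12666 tested genes (light and dark bands) and the 1.5-fold lines (dashed). All 45 points lie between the dashed lines, with EZH2 at −0.37 in ERG over vector and JARID2 at −0.48 in ERG/mAKT over vector farthest below 0.

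Whether ERG was followed by another difference when mAKT was present was read as the log2 ratio with mAKT minus that without. For EZH2 it was 0.34, from −0.37 without mAKT to −0.03 with it, and 31.7% of the tested genes lay at least as far from 0. For SUZ12 it was 0.22, from −0.35 to −0.12, and for KDM6B 0.24, from −0.18 to 0.06. EED had the largest value, −0.39, from 0.11 to −0.28, and 26.4% of the tested genes lay at least as far from 0. Of the 9 members, 0 were past 1.5-fold up and 0 down, against 4.38% and 8.38% of the tested genes. With 1 pooled value per line, none of these values was tested. The mAKT lines also differed in AKT1 RNA, at 156.3 FPKM without ERG and 281 with it. The part of this difference was not tested.

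The patterns over the 4 lines were compared by the distance between log2(FPKM + 1) values, each gene centred on its own mean. EZH2 and SUZ12 were the closest of all pairs of members, at a distance of 0.126. Of the tested genes, 4.74% lay closer to EZH2 than SUZ12 did, a share for a pair picked as the closest. The nearest genes were TMEM179B, IP6K1 and SMG8 for EZH2, HERC2P9, INADL and MOB1B for EZH1, and CDC7, NEDD1 and DIRC2 for SUZ12. They were MRPL48, TALDO1 and SNRPA1 for EED, CPT2 and API5 for RBBP4, and EIF2B2, BAG6 and HSPA1B for RBBP7. They were DYRK3, NIPAL3 and FKBP1B for JARID2, LINC00909, SNAPC4 and TIGD7 for KDM6A, and SRD5A3, IMPACT and TOP2B for KDM6B. None was a member, and the distances ran from 0.005 to 0.043. With 4 values per gene such closeness is common: between 83 genes for JARID2 and 1008 genes for EZH1 lay within a distance of 0.1.

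Few genes on the lists set beside the members were past the fold. Of 85 genes on 8 lists, 83 were tested. These include 18 proliferation genes and 15 genes of other complexes that hold RBBP4 or RBBP7. In ERG over vector, mAKT over vector and ERG/mAKT over mAKT, 0 of 83 were past 1.5-fold in either direction. In ERG/mAKT over ERG 1 was higher and 3 were lower, and in ERG/mAKT over vector 0 were higher and 2 lower. These counts are to be read beside the shares of the tested genes given above. Of the PRC2 accessory subunits, 7 of 8 were tested and none was past the fold. In ERG over vector they ran from −0.12 for LCOR to 0.11 for MTF2, and in ERG/mAKT over ERG from −0.49 for PHF1 to 0.17 for AEBP2. EZHIP, an inhibitor of PRC2, was listed below 0.1 FPKM in all lines.

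PRC1, which binds H3K27me3 and ubiquitinates histone H2A, had 20 of 20 genes tested. Its median log2 ratio in ERG over vector was −0.20, from −0.43 for PCGF6 to 0.22 for PCGF2. In ERG/mAKT over ERG, RYBP, a subunit of variant PRC1, was past 1.5-fold higher at 0.65 and PCGF2 past it lower at −0.60. In ERG/mAKT over vector, BMI1 at −0.59 and PHC2 at −0.60, both subunits of canonical PRC1, were the only ones past it. PR-DUB, which removes the ubiquitin from H2A, had 7 of 8 genes tested and none past the fold. Its genes ran from −0.37 for BAP1 to 0.05 for MBD6 in ERG over vector and from −0.23 for ASXL1 to 0.29 for BAP1 in ERG/mAKT over ERG.

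The 9 partners of KDM6A in the KMT2C and KMT2D complexes also had none past the fold. They ran from −0.50 for PAXIP1 to 0.19 for DPY30 in ERG over vector, and from −0.23 for PAGR1 to 0.38 for PAXIP1 in ERG/mAKT over ERG. EP300 and CREBBP, which acetylate the same lysine, lay at −0.06 and −0.23 in ERG over vector and at 0.54 and 0.24 in ERG/mAKT over ERG. The 5 H3K36 methyltransferases, whose mark counters PRC2, ran from −0.41 for NSD3 to −0.09 for NSD1, and then from 0.10 for NSD2 to 0.44 for SETD2. None of the 5 passed 1.5-fold, and the comparisons share the ERG line. The 15 genes of other complexes that hold RBBP4 or RBBP7 ran from −0.28 for SIN3A to 0.25 for MBD2 in ERG over vector. In ERG/mAKT over ERG they ran from −0.61 for MBD2, the only 1 past the fold, to 0.19 for SIN3A.

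EZH2 is also known to follow cell division, so 18 proliferation genes were set beside it. In ERG over vector they had a median log2 ratio of −0.05, from −0.51 for CDK1 to 0.41 for AURKB, with 0 of 18 past 1.5-fold. In ERG/mAKT over ERG they had a median of −0.10, from −0.61 for AURKB, the only 1 past the fold, to 0.39 for CDK1. MKI67 stood at 24.2, 24.9, 34.2 and 23.9 FPKM in vector, ERG, mAKT and ERG/mAKT cells, and E2F1 at 29.5, 30.1, 28.9 and 28.2. Both were lowest in ERG/mAKT cells, as were 12 of the 18 genes in all, against 36.4% of the tested genes. The other 6 of 18 were lowest in ERG cells, near the 31.6% of the tested genes. The part of cell division in the EZH2 values was not tested.

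The open chromatin lists were used to see whether the members' starts were accessible in the lines with ERG, mAKT or both. An ATAC peak lay within 1 kb of the start of 8 of 9 members in ERG, mAKT and ERG/mAKT cells alike. Among 11433 tested genes with a known strand, 84.5%, 84.1% and 80.8% had one. At EZH2 the peak ran from position −682 to position 105 around the start in ERG cells, with a fold enrichment of 10.1, against 8.81 in mAKT and 9.91 in ERG/mAKT cells. At SUZ12 the fold enrichment of the start peak was 9.66, 7.93 and 7.39, and at JARID2 7.94, 8.71 and 7.31 in the same order. These heights come from separately processed libraries and were not compared between lines. The EZH2, SUZ12, RBBP7 and KDM6A windows printed above were placed on hg19 by an exact match. They lay under these peaks in whole or in part, for 298, 300, 83 and 300 of their 300 bases in ERG cells. The ETS matches at RBBP7 lay outside the peaks of ERG and ERG/mAKT cells, and under the peak of mAKT cells.

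KDM6B was the exception at its listed start, and its open chromatin lay to both sides. The nearest peaks began at position 1677 after the start and ended at position −3067 before it in ERG cells, and lay at similar places in mAKT and ERG/mAKT cells. RefSeq gives a second start 5700 bases upstream, whose 300-base window lay under the ATAC peak for 300, 300 and 194 bases in ERG, mAKT and ERG/mAKT cells. JARID2 also had a second open start, where 244, 201 and 219 of 300 bases lay under peaks in the 3 lines.

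**Figure D3:**
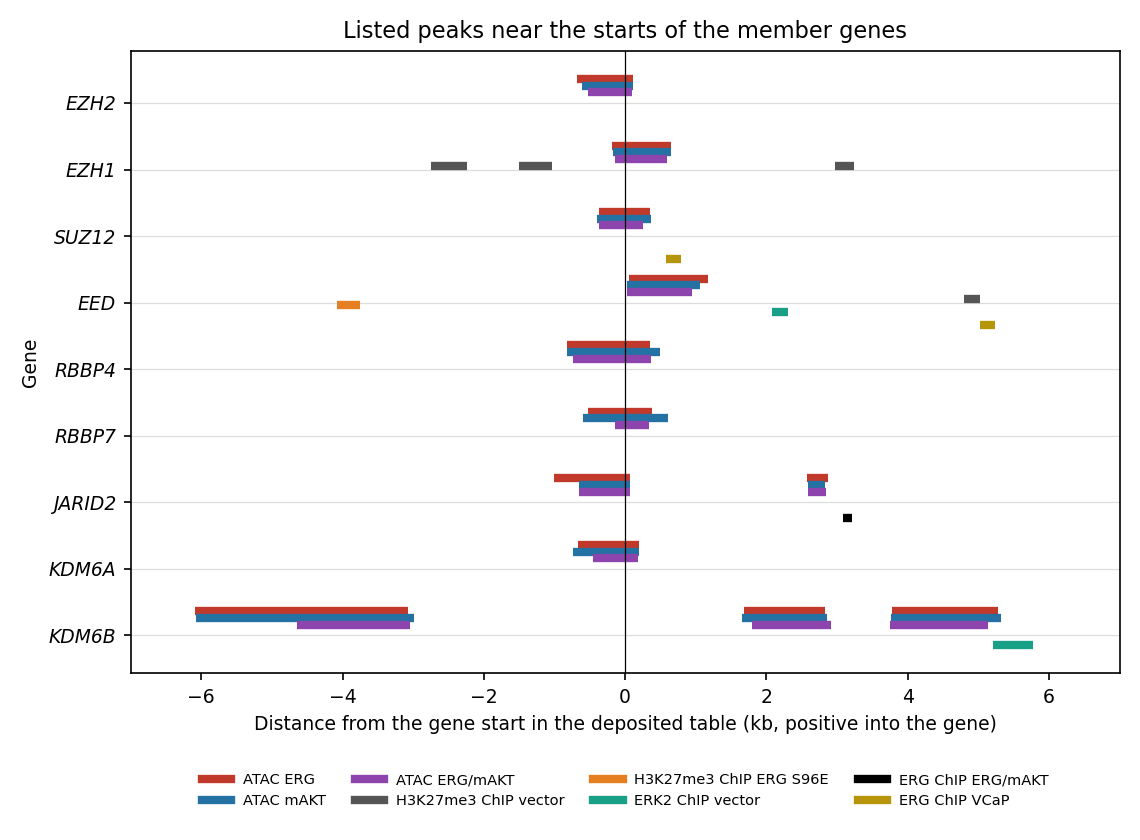
Listed peaks within 7 kb of the start of each gene as the RNA table gives it (x axis, kb, positive into the gene), with 1 bar per peak, coloured by list. ATAC peaks of all 3 lines lie at the start of 8 of 9 genes, and those of KDM6B lie to both sides of its start. The H3K27me3, ERK2 and ERG bars lie more than 1 kb from the starts except an ERG peak of VCaP from 573 bases into SUZ12. The nearest of the others is an H3K27me3 region of vector cells that ends at position −1035 from the start of EZH1.

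H3K27me3 at the members' own genes was read against that at all tested genes. No list had a region within 1 kb of the start of any member, against 11.0% of the tested genes in vector, 4.36% in ERG and 8.39% in ERG S96E cells. Within gene spans, 8 of 9 members overlapped a region in vector cells, 1 of 9 in ERG and 0 of 9 in ERG S96E cells, against 73.1%, 21.7% and 21.7% of the tested genes. The covered share of the span in vector cells ran from 0 for KDM6B to 3.21% for EZH1, with a median of 1.81% over the tested genes, which EZH1, EED at 2.05% and JARID2 at 1.94% exceeded. In ERG and ERG S96E cells the median over the tested genes was itself 0. In ERG cells the 1 member with a region was KDM6A, at 0.148% of its span. None of the 9 was covered over at least 10% of its span, against 6.78% of the tested genes in vector and 2.12% in ERG cells. All these regions in vector and ERG cells had a q-value of 1.00, so they are weak calls.

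ERG peaks were listed at 1 to 2 members and ERK2 peaks, in vector cells, within most of them. In ERG/mAKT cells 0 of 9 had an ERG peak at the start and 1 of 9, JARID2, within its span, against 1.83% and 20.0% of the tested genes. In VCaP cells SUZ12 had a peak at the start and SUZ12 and EED within the span, or 1 of 9 and 2 of 9, against 4.79% and 15.1%. ERK2 peaks lay at 0 of 9 starts in both lines, against 13.0% of the tested genes in vector and 8.38% in ERG cells. Within spans, 7 of 9 members had an ERK2 peak in vector cells and 0 of 9 in ERG cells, against 53.1% and 18.9% of the tested genes. Of those, only the peak in KDM6B, from 5200 bases into the gene, had a q-value of at most 0.05, at 0.0194 with a fold enrichment of 4.92. The headers record 8393459 ERK2 reads and 15658943 input reads for vector cells, against 15020233 and 9675359 for ERG cells. The ERK2 list held 41276 peaks in vector and 5721 in ERG cells, with a MACS2 p-value limit of 0.01. The part of these depths and list sizes in the difference was not tested.

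The ERG peaks that bear on the members are shown on the hg19 plus strand, with GGAA or its reverse complement, the core of ETS sites, in capitals, together with the longer match to GGAAGTG at JARID2. The JARID2 peak (chr6:15249285-15249420) lies in an intron, 3079 bases from the listed start and 199 bases after the second RefSeq start. The EED peak (chr11:85960454-85960666) lies in an intron 5028 bases from the start, and the SUZ12 peak (chr17:30264617-30264831) in an intron 573 bases from the start.
JARID2 in ERG/mAKT cells: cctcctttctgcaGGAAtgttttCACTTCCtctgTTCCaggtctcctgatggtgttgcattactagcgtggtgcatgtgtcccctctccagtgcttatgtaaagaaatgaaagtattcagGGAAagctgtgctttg
EED in VCaP cells: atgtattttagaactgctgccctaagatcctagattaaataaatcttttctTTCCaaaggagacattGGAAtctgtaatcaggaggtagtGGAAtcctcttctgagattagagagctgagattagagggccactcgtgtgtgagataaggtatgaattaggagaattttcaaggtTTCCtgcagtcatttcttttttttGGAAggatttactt
SUZ12 in VCaP cells: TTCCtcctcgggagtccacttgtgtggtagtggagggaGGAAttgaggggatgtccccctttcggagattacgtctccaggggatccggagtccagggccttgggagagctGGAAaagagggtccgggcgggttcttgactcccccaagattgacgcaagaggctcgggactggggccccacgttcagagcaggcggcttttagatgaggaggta

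The JARID2 peak had a fold enrichment of 3.52 and a q-value of 0.701. It held 4 GGAA cores, 1 of them within GGAAGTG on the minus strand. Of windows of its width at the 9113 peaks of that list, 76.8% held GGAA, 9.28% held at least as many cores and 4.02% held GGAAGTG. The EED peak was the only 1 of these with a q-value of at most 0.05, at 0.00665 with a fold enrichment of 4.44, and its 5 cores were matched or passed in 17.6% of windows at VCaP peaks on the main chromosomes. The SUZ12 peak had a fold enrichment of 3.35 and a q-value of 0.215, with 3 cores, matched or passed in 52.0% of such windows. None of the 3 lay under an ATAC peak of the RWPE1 lines. A second JARID2 peak lay 236780 bases into the gene, and a second SUZ12 peak, without GGAA, lay 20003 bases into that gene, with 107 of its bases under an ATAC peak of ERG cells.

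The length covered by the mark was set beside the RNA of its writers and erasers in vector and ERG cells, the only line names with both. For ChIP the labels name the pQCXIH vectors alone, while the RNA lines also carried pBabe-Puro. The cells of the 2 assays may therefore differ. The lists covered 241.7 Mb in 492265 regions in vector, 138.4 Mb in 228233 regions in ERG and 224.0 Mb in 252784 regions in ERG S96E cells, with mean fold enrichments of 1.88, 1.99 and 2.08. Covered length in ERG cells was thus 0.573 of that in vector cells. Between the RNA lines of those names the FPKM ratio was 0.758 for EZH2, 0.774 for SUZ12 and 0.866 for RBBP4. It was 0.905 for JARID2 and 0.858 for KDM6B. It was 1.03 for EZH1, 1.08 for EED, 1.04 for RBBP7 and 1.07 for KDM6A. With all regions counted, the ratio of covered length lay below the FPKM ratio of every member. The lowest of these, EZH2 and SUZ12, were therefore nearest to it by rank alone, which does not tie them to the mark.

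The ratio of covered length depended on which regions were counted. With regions of at least 2-fold enrichment the vector list covered 64.1 Mb and the ERG list 70.9 Mb, a ratio of 1.11, and with the same number of regions of lowest p-value the ratio was 1.13. With regions of at least 1 kb it was 0.882, to which RBBP4 at 0.866, JARID2 at 0.905 and KDM6B at 0.858 lay near. Both 1.11 and 1.13 lay above the FPKM ratio of every member, of which EED at 1.08 was the highest. EZH2 and SUZ12 RNA therefore lay on the same side of 1 as covered length under 2 of these 4 ways of counting. Under the other 2 they lay on the other side, and the same held for RBBP4, JARID2 and the demethylase KDM6B. Only 41 regions in vector, 134 in ERG and 5347 in ERG S96E cells had a q-value of at most 0.05. The headers record 19444504 ChIP and 15679418 input reads in vector, 16513053 and 9675359 in ERG, and 26454542 and 19065760 in ERG S96E cells, and their part in the lengths was not tested.

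**Figure D4:**
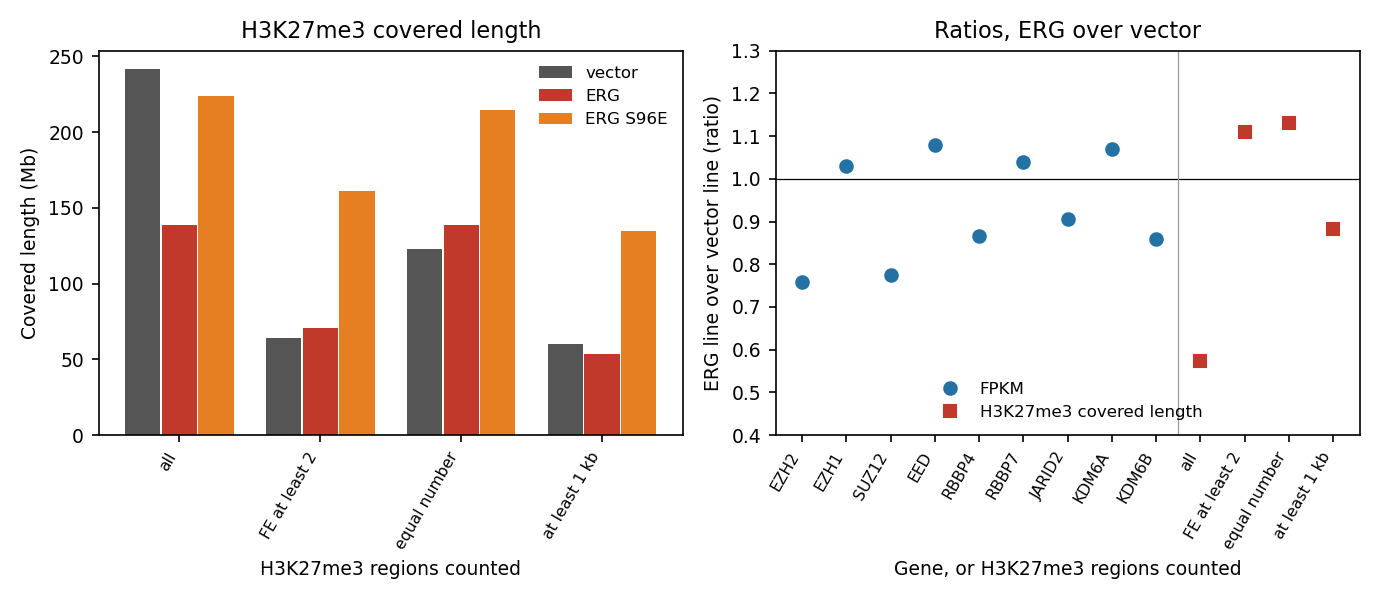
Left, length covered by H3K27me3 regions (Mb) in vector, ERG and ERG S96E cells, counting all regions, those with a fold enrichment (FE) of at least 2, an equal number of lowest p-value, or those of at least 1 kb. Right, the ratio of ERG to vector cells for the FPKM of the 9 genes (circles) and for covered length under each count (squares), which ran from 0.573 to 1.13 while EZH2 lay at 0.758 and SUZ12 at 0.774.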

How the data were processed

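The authors aligned RNA-seq reads with TopHat2 and deposited a Cuffdiff table with 1 FPKM per line for each gene, pooled over 3 libraries, for 6 pairs of 4 lines. Its columns of fold change, test statistic, p-value and q-value hold the authors' own comparisons and were not used, so no error is given for the RNA values. The authors aligned ChIP-seq and ATAC-seq reads to hg19 with Bowtie2 and called peaks with MACS2. The deposited lists give a fold enrichment over background, a −log10 p-value and a −log10 q-value per peak, and were called on 1 library per line, for ChIP on DNA from 3 pooled experiments. Duplicate rows or 2 values for 1 line led to 4 genes being left out. The headers of the H3K27me3 lists record a p-value limit of 0.001 with a broad limit of 0.1. The regions listed at the members reached a MACS2 −log10 p-value of 1.89 at most, in KDM6A in vector cells. They thus passed the broad limit and not that of 0.001. The lists attached to 2 samples whose labels and headers conflict were not used, and no list was taken for ATAC-seq of vector cells.

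Log2 ratios used FPKM plus a pseudocount of 1 for genes that reached an FPKM of 1 in some line, and a gene was called when past 1.5-fold. Peaks were assigned by an overlap of at least 1 bp with the gene span in the RNA table or 1 kb to either side of its start, with strand from GENCODE release 44 on GRCh37 (11433 genes). Of the 9 members, all matched RefSeq promoters by symbol. The pathway lists used older symbols where the table had them (NSD2 and NSD3 as WHSC1 and WHSC1L1, EPOP as C17orf96, EZHIP as CXorf67).

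The genes named are the 9 members, the highest and lowest gene of each list in ERG over vector and ERG/mAKT over ERG, MKI67, E2F1, ERG and AKT1, and the 3 genes nearest in pattern to each member, of which 1 is not reported here. List genes past the fold, the markers and the gene copies were named after their values were seen. The members and lists were chosen with earlier results of these data known. The code was tested on simulated data. It ran on pysam 0.24.0, matplotlib 3.10.9, pandas 2.3.3 and numpy 2.4.6 under Python 3.11.15.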

Additional observations from a re-analysis of the deposited data

How the results depend on the processing

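No paired analysis was possible because the RNA values are pooled over the libraries of each line and no column holds a single library, so leaving out replicates could not be run either. A pseudocount of 0.1, no filter on low values, a filter at an FPKM of 5, centring on the median and a fold threshold of 2 left 0 of the tested members past the fold in each comparison. At a threshold of 0.322 on the log2 scale, 2 members were lower in ERG over vector (11.3% of the tested genes), 1 was higher (10.8%) and 1 lower (18.4%) in ERG/mAKT over ERG, and 1 was lower in ERG/mAKT over vector (11.4%). Covered length of H3K27me3 in ERG over vector was 1.11 at a fold enrichment of at least 2, 1.13 with equal numbers of regions and 0.882 with regions of at least 1 kb, and in ERG S96E over vector it was 2.51, 1.74 and 2.23, beside 0.927 with all regions. At a q-value of at most 0.05, the members with a region or peak in their span numbered 0 for H3K27me3 in vector and in ERG cells (0.105% and 0.114% of genes), 1 for ERK2 in vector cells (3.52%), 0 for ERG in ERG/mAKT cells (3.66%) and 1 for ERG in VCaP cells (6.10%), and 0 had a VCaP peak at the start (2.34%). With at least 10% of the span covered, 0 members held H3K27me3 in vector or ERG cells. Within 5 kb of the start, 2 members had H3K27me3 in vector cells (53.1% of genes), 1 in ERG S96E cells (20.9%), 1 ERK2 in vector cells (32.0%) and 1 ERG in ERG/mAKT cells (5.93%). With GENCODE starts, chosen after the data were seen, 1 member, EED, had H3K27me3 at the start in vector cells (11.2% of genes), where its start lies 43172 bases upstream. The cause of the moves in covered length was not tested.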
